A study of Sus scrofa with 6 samples.

Results

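ATF3, ZFP36, GEM and RGS2 are genes whose transcripts many cell types make quickly and briefly after a stimulus. They were described in porcine growth plate and articular cartilage, as native tissue and as cultured chondrocytes. The members were every probe set that the platform annotation gives to one of these symbols. There were 6 such probe sets for the 4 genes, out of 23999 probe sets and 6765 named genes. The genes had been picked from the tissue differences on these same arrays, chiefly their high signal in native articular cartilage. Their tissue differences are therefore a description, given without a test, and so are differences between native and cultured samples.

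The samples were native growth plate cartilage, growth plate chondrocytes at day 10 and at day 20 of culture, native articular cartilage, and articular chondrocytes at day 10 and at day 20 of culture, all from Sus scrofa. Growth plate cartilage lengthens growing bones and is replaced by bone, while articular cartilage covers the joint surface. Each of the 6 conditions had 1 array, so no difference between 2 arrays had a replicate check. Per the labels, cells were freed with collagenase and grown in DMEM/Ham's F12 with FBS and antibiotics at low oxygen, with no other treatment. The labels call both native samples primary cells in 1 field and cartilage in the title. The number, age and sex of the animals, and any pooling, are not stated. The values are scaled signal intensities, and in bulk RNA fewer expressing cells and less RNA per cell cannot be told apart.

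Immediate early genes need no new protein synthesis to be transcribed, since the factors that switch them on are already in the cell. Serum, mechanical load and cytokines are known inducers, and the transcripts of many of these genes decay fast. ATF3 encodes a stress-induced transcription factor of the ATF/CREB family. ZFP36, also called TTP, encodes a zinc finger protein that binds AU-rich elements and speeds the decay of cytokine mRNAs. GEM encodes a small GTP-binding protein of the RGK family, which restrains voltage-gated calcium channels. RGS2 encodes a regulator that shortens signalling by Gq proteins downstream of hormone and peptide receptors.

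All 4 genes had their highest signal in native articular cartilage, and GEM alone remained at least 2-fold apart between the cartilages in culture. GEM had a signal of 1333 in native growth plate cartilage, 238 in growth plate cultures at day 10 and 204 at day 20, against 6431, 1366 and 1279 in the articular samples of the same stages. It was lower in growth plate at each stage, and the 3 growth plate signals overlapped the articular ones only in that native growth plate lay between the 2 articular cultures. The articular signal was 4.82 times the growth plate signal in native tissue, 5.74 times at day 10 and 6.28 times at day 20. As log2 differences, growth plate minus articular, these were -2.27, -2.52 and -2.65, a mean of -2.48 ± 0.19 (SD over 3 pairs of arrays, which are different stages and not replicates).

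ATF3 had a signal of 426 in native growth plate cartilage, 571 in growth plate cultures at day 10 and 358 at day 20, against 5789, 368 and 513 in the articular samples. Native articular cartilage stood alone, at 10.1 times the next highest array, and the other 5 arrays lay within a factor of 1.60 of each other. The log2 difference, growth plate minus articular, was -3.76 in native tissue, 0.63 at day 10 and -0.52 at day 20. Both culture differences were under 2-fold and they had opposite signs.

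ZFP36 had a signal of 406 in native growth plate cartilage, 185 in growth plate cultures at day 10 and 315 at day 20, against 3778, 245 and 504 in the articular samples. Native articular cartilage was 7.50 times the next highest array, which was the day 20 articular culture. The log2 difference was -3.22 in native tissue, -0.41 at day 10 and -0.68 at day 20, so the growth plate signal was the lower one at all stages but by less than 2-fold in culture.

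RGS2 was read by 3 probe sets. The brightest had a signal of 399 in native growth plate cartilage, 234 in growth plate cultures at day 10 and 316 at day 20, against 4016, 403 and 277 in the articular samples. Native articular cartilage was 9.96 times the next highest array, and the other 5 arrays lay within a factor of 1.73. The log2 difference was -3.33 in native tissue, -0.79 at day 10 and 0.19 at day 20. The other probe sets were dim. One had signals of 3.54, 15.8 and 42.5 on the growth plate arrays and 79.4, 27.7 and 23.1 on the articular arrays at native, day 10 and day 20, and only 2 of these 6 signals exceeded the floor of 36.1, under which signals were not ordered. The last probe set lay under the floor on all 6 arrays, with a highest signal of 9.98. The bright and the dimmer probe set were therefore both highest in native articular cartilage, and the last one carries no information on the difference.

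**Figure D1:**
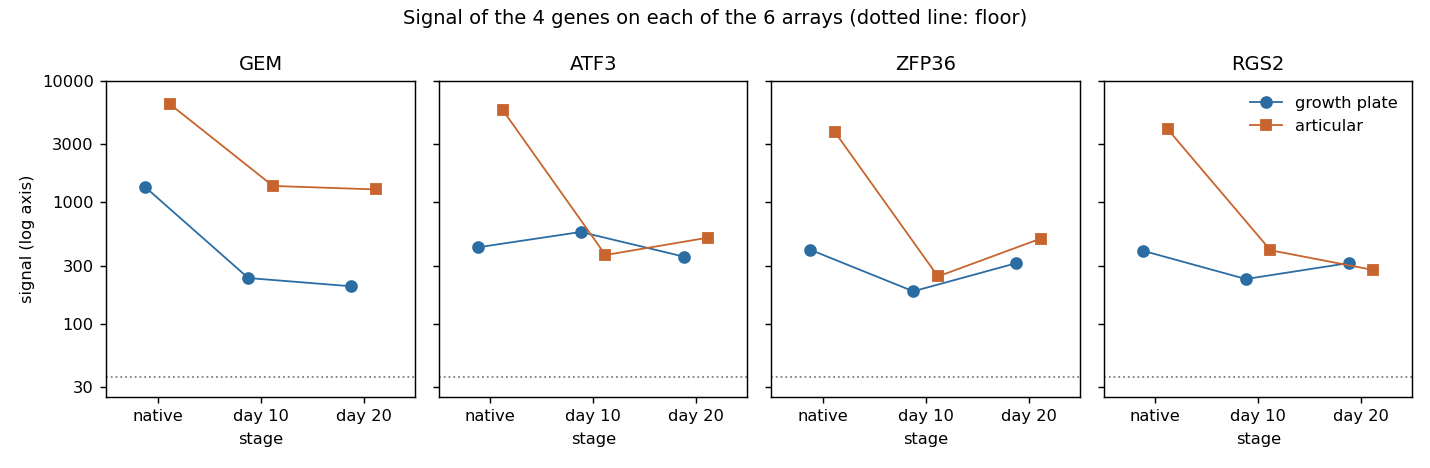
Signal of GEM, ATF3, ZFP36 and RGS2 (log axis) in growth plate (circles) and articular (squares) samples at native, day 10 and day 20, with 1 array per point and the floor as a dotted line. The GEM lines stay apart at every stage, while for ATF3, ZFP36 and RGS2 the native articular point stands above 5 arrays that lie within a factor of 2.72 of each other.

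Among all 5601 genes that exceeded the floor on at least 2 arrays, the 4 genes included, 7.91% were at least 2-fold lower in the growth plate array of the native pair. All 4 members were among them, as their choice fixed. Ordered from the lowest growth plate minus articular difference in native tissue, ATF3 ranked 8, RGS2 ranked 10, ZFP36 ranked 12 and GEM ranked 50. At day 10, 1 of the 4 members was at least 2-fold lower in growth plate, against 3.89% of all genes, and at day 20 again 1 of 4, against 4.09% of all genes. That gene was GEM on both days, and 1.21% of all genes were at least 2-fold lower on both. In the same order GEM ranked 12 at day 10 and 13 at day 20. ATF3 ranked 5115 and 828, ZFP36 1092 and 526, and RGS2 391 and 4088 on these days. Of the 68 genes that lay at least 4-fold lower in the native growth plate, 8 (11.8%) stayed 2-fold or more lower at both culture days, and 41 (60.3%) were under 2-fold at both days. ATF3, ZFP36 and RGS2 belonged to the 41 and GEM to the 8.

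**Figure D2:**
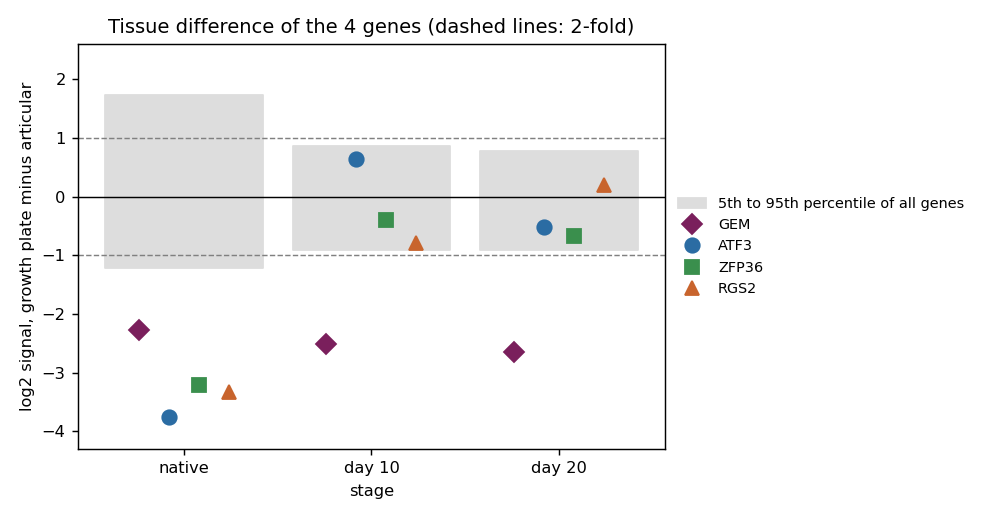
Log2 signal, growth plate minus articular, for the 4 genes at each stage, with the 5th to 95th percentile of all 5601 genes shaded and 2-fold marked by dashed lines. In native tissue all 4 genes lie below the shaded range, from -2.27 to -3.76, and at day 10 and day 20 GEM alone does, at -2.52 and -2.65.

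GEM was 1 of 3 genes (0.0536% of all genes) whose growth plate signal was lower by 4-fold or more at all 3 stages. The others, named after their values were seen, were CHI3L1, a secreted glycoprotein of the chitinase family, and NFIA, a transcription factor of the nuclear factor I family. CHI3L1 had signals of 2984, 81.6 and 89.3 on the growth plate arrays, against 15448, 1193 and 1395 on the articular arrays at native, day 10 and day 20. NFIA had signals of 103, 66.9 and, at the floor, 36.1 on the growth plate arrays, against 476, 368 and 392 on the articular arrays, on the brightest of its probe sets, the others being near or under the floor. At a 2-fold threshold 18 genes (0.321%) were lower at all 3 stages, of which GEM was the fourth by mean difference.

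Culture and native tissue of one cartilage were set side by side next. In articular chondrocytes all 4 genes were at least 2-fold lower at day 10 than in native cartilage, against 9.59% of all genes, and all 4 at day 20, against 8.86%. In growth plate chondrocytes 2 of the 4 genes, GEM and ZFP36, were at least 2-fold lower at day 10, against 6.86% of all genes, and GEM alone at day 20, against 5.71%. The articular log2 changes at day 10 and day 20 were -2.24 and -2.33 for GEM, -3.97 and -3.50 for ATF3, -3.94 and -2.91 for ZFP36, and -3.32 and -3.86 for RGS2. All 8 rest on the one native articular array from which the genes were chosen.

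The growth plate log2 changes at day 10 and day 20 were -2.49 and -2.71 for GEM. They were 0.42 and -0.25 for ATF3, -1.14 and -0.37 for ZFP36, and -0.77 and -0.34 for RGS2. GEM was thus lower in culture in both cartilages by similar log2 amounts, which left its tissue difference at about the native size. It was 1 of 39 genes (0.696% of all genes) that were lower than native by 2-fold or more at both days in both cartilages. ATF3 in growth plate differed from native tissue by under 2-fold on both days.

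**Figure D3:**
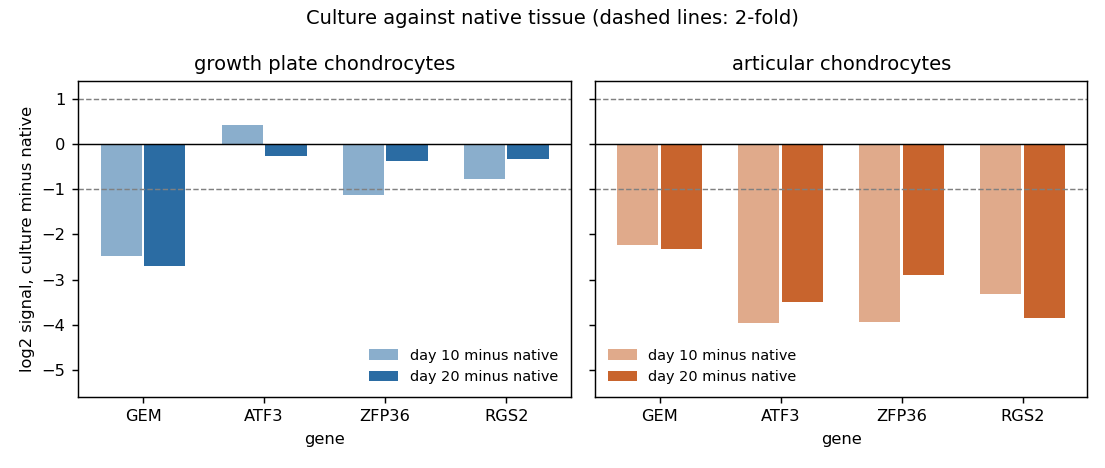
Log2 signal of each culture minus its native tissue, for growth plate (left) and articular (right) chondrocytes, with 1 array behind each term, pale bars for day 10, full bars for day 20 and dashed lines at 2-fold. All articular bars lie below -2, and in growth plate only the GEM bars do.

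The change between day 10 and day 20 was estimated from the cultured arrays, while its standard error came from the fit to all 6. It was tested with limma across all 5601 genes, in an additive model of tissue and stage whose only residual is the tissue-by-stage interaction. The native articular value of the members, for which they were chosen, enters that residual, and the standard errors of ATF3, ZFP36 and RGS2 are wide with it, so the absence of a call in this fit says nothing about stability. Calls required both a 2-fold change and an adjusted p (Benjamini-Hochberg) below 0.05, and none of the 4 genes met this. ZFP36 had the largest change, a log2 change, day 20 minus day 10, of 0.90 ± 0.70 (SE) and a limma adjusted p of 0.605, and was higher at day 20 in 2 of 2 cartilages. GEM had -0.16 ± 0.24 and a limma adjusted p of 0.817, and was lower at day 20 in 2 of 2 cartilages. ATF3 had -0.10 ± 0.98 with a limma adjusted p of 0.976, and RGS2 had -0.05 ± 0.81 with a limma adjusted p of 0.985. For both, the 2 cartilages changed in opposite directions, ATF3 by -0.67 in growth plate and 0.48 in articular cultures, and RGS2 by 0.44 in growth plate and -0.54 in articular cultures. Over all genes limma called 0% higher and 0% lower, while 820 genes (14.6%) had an unadjusted p under 0.05. With the 4 cultured arrays alone, which leave 1 residual degree of freedom, limma called 101 genes higher and 107 lower, and none of the 4 members. The native arrays do not enter that fit, and its limma adjusted p was 0.104 for ZFP36, 0.686 for GEM, 0.879 for ATF3 and 0.937 for RGS2.

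Other immediate early genes were counted from 3 lists, with the 4 members left out. The lists were written with earlier results of these arrays known, so their direction in native tissue is not independent of those results. Of 65 genes listed, 37 were measured, meaning that they exceeded the floor on at least 2 arrays. In native tissue 13 of the 37 (35.1%, against 7.91% of all genes) were lower in growth plate by 2-fold or more and PLK2 alone was higher by 2-fold or more (12.9% of all genes were), with a median log2 difference of -0.45 where all genes had -0.005. At day 10, 3 were lower and 2 higher, where 3.89% of all genes were lower and 3.43% higher, with a median of -0.03, the same as that of all genes at that rounding. At day 20, 7 were lower and 3 higher, where 4.09% of all genes were lower and 2.82% higher, with a median of 0.22 against -0.04 over all genes. Of these 37 genes, 7 were at least 4-fold lower in native growth plate, against 1.21% of all genes. None of the 7 was at least 2-fold lower at both culture days, where GEM was. Over all genes that far apart in native tissue, 8 of 68 (11.8%) were, so 7 genes are too few to set GEM apart. None of the 37 was called between day 10 and day 20 with limma in the fit to all arrays. That fit called 0% of all genes higher and 0% lower, so the count says nothing about these genes.

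Of the AP-1 factors, which pair to bind DNA, 4 were measured. At least 2-fold lower in native growth plate were 3, against 7.91% of all genes. JUN had signals of 518, 226 and 364 on the growth plate arrays, against 2955, 221 and 299 on the articular arrays at native, day 10 and day 20. FOS had 1643, 1490 and 1190 on the growth plate arrays, against 6567, 2113 and 2490 on the articular arrays. JUN thus had the native-only pattern of ATF3, while FOS was lower in growth plate at each stage, by under 2-fold at day 10. The third was FOSL1, whose native difference was -1.36 on the probe set used and -0.09 and -1.83 on the other 2.

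Among 11 other immediate early transcription factors 3 were at least 2-fold lower in native growth plate and none was 2-fold higher. The shares of all genes were 7.91% and 12.9%. NR4A2, a nuclear receptor, had signals of 144, 62.8 and 297 on the growth plate arrays, against 956, a signal at the floor of 36.1, and 174 on the articular arrays. IRF1, a factor of interferon responses, had 273, 169 and 136 on the growth plate arrays, against 2085, 228 and 288 on the articular arrays. NR4A3 lay at the floor on 4 arrays and had 72.0 in growth plate and 663 in articular cultures at day 20. HES1 went the other way in culture, with log2 differences of 1.31 at day 10 and 0.86 at day 20. EGR1, a serum-induced zinc finger factor, had 204, 152 and 339 on the growth plate arrays, against 290, 431 and 1018 on the articular arrays. Its log2 differences at native, day 10 and day 20 were -0.51, -1.51 and -1.59 on the probe set used, and -1.47, -0.58 and -1.53 on its other one. The probe sets thus differ on whether EGR1 was past 2-fold in native tissue and at day 10. Of the 37, only EGR1 and IER5 were, on the probe sets used, lower in growth plate by 2-fold or more at both culture days. The share of all genes was 1.21%. IER5 lay close to the 2-fold limit, at -1.05 and -1.01, with -0.88 and -1.20 for its other probe set. CEBPD had -0.52 at day 10 and -0.55 at day 20 on the probe set used. Its other probe sets disagreed, with -1.12 and -1.37 on one and 0.29 and -0.68 on another.

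Among 22 feedback and signalling genes of the early response, 7 were at least 2-fold lower in native growth plate and 1 was 2-fold higher. The shares of all genes were 7.91% and 12.9%. DUSP1, a phosphatase that switches off MAP kinases, had 2630, 2988 and 3346 on the growth plate arrays, against 16411, 3190 and 5123 on the articular arrays. NFKBIA, the inhibitor that closes the NF-kappa B response, had 1849, 383 and 387 on the growth plate arrays, against 10273, 595 and 797 on the articular arrays. PPP1R15A, which restores protein synthesis after stress, had 96.7, 103 and 120 on the growth plate arrays, against 473, 58.6 and 64.3 on the articular arrays. PLK2, a kinase induced early by serum, was higher in growth plate at native, day 10 and day 20, with log2 differences of 1.58, 1.37 and 1.21.

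**Figure D4:**
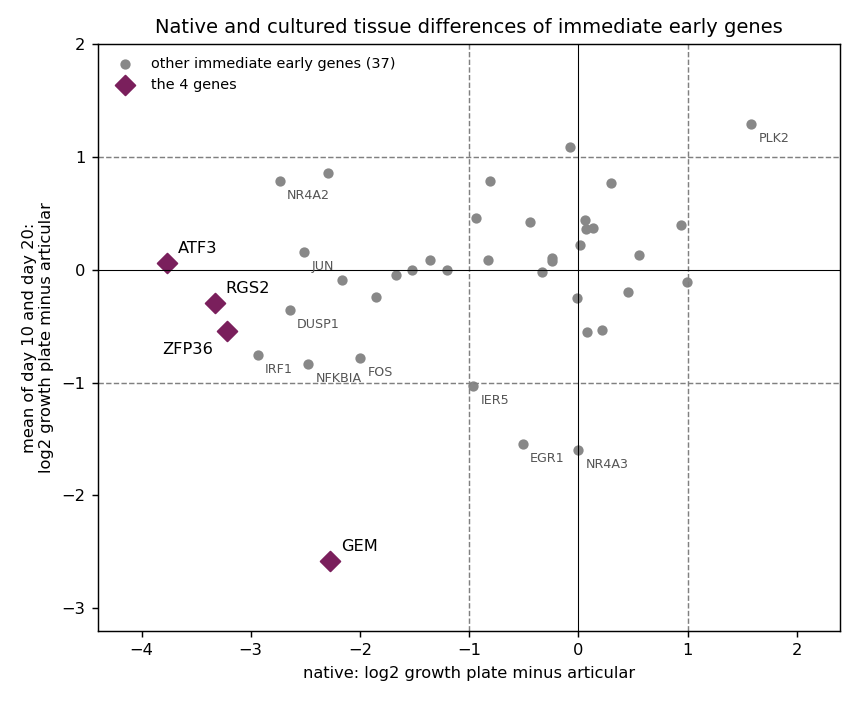
Log2 growth plate minus articular difference in native tissue (x axis) against the mean of the day 10 and day 20 differences (y axis) for the 4 genes (diamonds) and 37 other immediate early genes (circles), with dashed lines at 2-fold. GEM lies at -2.27 and -2.59, below every other gene plotted, and ATF3, RGS2 and ZFP36 lie left with culture means between -0.54 and 0.06.

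Genes linked to each member followed, from lists by role. Among 10 measured ATF3 partners and stress response genes, none was at least 2-fold lower in native growth plate and 1 was higher. The shares of all genes were 7.91% and 12.9%. The higher one was VLDLR, a lipoprotein receptor, at 2.67 on the probe set used and 0 on a dimmer one. The list median was -0.48 in native tissue, 0.38 at day 10 and 0.07 at day 20. DDIT3, a partner of ATF3 in the unfolded protein response, had signals of 325, 251 and 364 on the growth plate arrays, against 225, 149 and 377 on the articular arrays. ASNS, an amino acid stress target, had 8942, 9023 and 12227 on the growth plate arrays, against 14199, 3967 and 11752 on the articular arrays. Of the 10 genes, 7 were lower in native growth plate on the probe sets used, all by less than 2-fold. Nearest to that limit were DNAJB9 and HSPA5. DNAJB9, a co-chaperone of the endoplasmic reticulum, had 1044 in native growth plate, against 2008 in native articular cartilage (log2 difference -0.94). HSPA5, the main chaperone there, had 11580 in native growth plate, against 21710 in native articular cartilage (log2 difference -0.91). On other probe sets the native difference was -0.69 and 0.49 for DNAJB9. For ATF4, also 1 of the 7, it was -0.56 on the probe set used and 0.25 on another.

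The next list held genes of mRNA decay and other proteins linked to ZFP36 or to AU-rich mRNAs. Of its 7 measured genes (CNOT1, CNOT7, CNOT8, DCP1A, YWHAB, ELAVL1 and HNRNPD), none was at least 2-fold apart at any stage. Of all genes, 7.91% were lower and 12.9% higher in native tissue. The shares were 3.89% and 3.43% at day 10, and 4.09% and 2.82% at day 20. No other ZFP36 family gene was among those measured. Of 12 measured AU-rich mRNAs that ZFP36 is known to bind or is held to bind, 5 were at least 2-fold lower in native growth plate. None was higher, and the list median was -0.33. These counts rest on the probe sets used. In native tissue VEGFA had 0.15 on the one used and 0.92 and -1.89 on others. Over all genes 7.91% were lower and 12.9% higher in native tissue. At day 10, 4 were lower and none higher, against 3.89% and 3.43% of all genes, and at day 20, 3 were lower and 2 higher, against 4.09% and 2.82% of all genes. LIF, a cytokine of the interleukin 6 family, had a signal of 739 in native articular cartilage and lay at the floor in native growth plate cartilage. CXCL2, a neutrophil chemokine, had signals of 207, the floor and the floor on the growth plate arrays, against 4133, 96.5 and 177 on the articular arrays. CCL2, a monocyte chemokine, had 1750, 78.8 and 375 on the growth plate arrays, against 2855, 876 and 1419 on the articular arrays. PLAU, the urokinase protease, had 1284, 979 and 1172 on the growth plate arrays, against 7595, 4205 and 4093 on the articular arrays. CXCL2, CCL2 and PLAU were the 3 genes of this list that, like GEM, were at least 2-fold lower at both culture days. Over all genes that share was 1.21%. MYC, IER3 and PTGS2 of this list also stood in the immediate early lists.

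Of 9 measured relatives and partners of GEM, 3 were lower in native growth plate by 2-fold or more and 1 was higher by as much. The shares of all genes were 7.91% and 12.9%. None of the 9 was 2-fold lower at both culture days, where 1.21% of all genes were. RRAD, another RGK protein, lay near the floor, with a highest signal of 83.8 in native articular cartilage. CALM2, 1 of the genes for calmodulin, which binds RGK proteins, had signals of 1690, 1447 and 1644 on the growth plate arrays, against 4300, 2559 and 2176 on the articular arrays. EZR, a linker of membrane and actin that binds GEM, had 3565, 3238 and 2589 on the growth plate arrays, against 7437, 3793 and 3217 on the articular arrays. CALM2 and EZR were lower in growth plate at all stages, past 2-fold only in native tissue, where EZR had a log2 difference of -1.06. CALM3, another calmodulin gene, went the other way in native tissue, with log2 differences of 0.50 on the probe set used and between 0.70 and 1.92 on 5 others.

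Of 14 measured genes of the RGS family and of Gq or cAMP signalling, 1 was lower and 5 were higher in native growth plate by 2-fold or more, against 7.91% and 12.9% of all genes, and the list median was 0.29. RGS4, a relative of RGS2, lay at the floor in both native cartilages and had signals at the floor and of 126 in growth plate cultures at day 10 and day 20 against 134 and 247 in articular cultures. PDE4B, a cAMP phosphodiesterase that cAMP itself induces, had 717, 164 and 875 on the growth plate arrays, against 2109, 445 and 803 on the articular arrays. F2R, a thrombin receptor that couples to Gq, had 358, 71.5 and 51.4 on the growth plate arrays, against 58.4, 241 and 235 on the articular arrays. PTH1R, the parathyroid hormone receptor, had 3431, 4864 and 3352 on the growth plate arrays, against 136, 503 and 1118 on the articular arrays. The growth plate arrays were thus the higher ones for PTH1R at each stage, and for F2R in native tissue only.

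Heat shock genes encode chaperones that cells also make quickly under stress. Of 13 measured, 2 were at least 2-fold lower in native growth plate and none was higher, against 7.91% and 12.9% of all genes. The list median was -0.45. The 2 were CRYAB and HSPB1. CRYAB, a small heat shock protein, had signals of 933, 1737 and 1885 on the growth plate arrays, against 3691, 1710 and 4861 on the articular arrays. HSPB1 had 1199, 1657 and 2624 on the growth plate arrays, against 2722, 1128 and 1891 on the articular arrays. This count rests on the probe sets used. In native tissue HSP90AA1 had -0.39 on the one used and -1.52, -1.08, -0.25 and -0.38 on others. HSF1 had -0.99 on the one used and -1.40 on another. HSPA8 had -0.76 on the one used and -0.17, 0.66 and -0.04 on others.

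For each member the 3 genes with the most similar log2 signals over the 6 arrays were sought by Pearson correlation, which is a description of 6 points that share the scaling of the arrays. The genes nearest to GEM were ZKSCAN5 (r = 0.991), TM9SF4 (r = 0.987) and CHI3L1 (r = 0.985). ZKSCAN5 moved far less than GEM, between 286 and 630, and TM9SF4 between 437 and 1025. Nearest to ATF3 were YWHAZ (r = 0.998), SOX10 and AQP5, of which SOX10 and AQP5 lay under the floor on 3 and 4 arrays. Nearest to ZFP36 were MAP4 (r = 0.996), CMBL and COPRS, and nearest to RGS2 were POLR1C (r = 0.999), RGL2 and GLTP. Without the native articular array, over 5 arrays, r was 0.997 for ZKSCAN5 with GEM, 0.976 for YWHAZ with ATF3, 0.967 for MAP4 with ZFP36 and 0.965 for POLR1C with RGS2. Between the members themselves r was lower over those 5 arrays in all 6 pairs. Between ATF3 and RGS2 r was 0.939 over 6 arrays and -0.78 over the 5 arrays, a comparison chosen after the values were seen, and between GEM and RGS2 it was 0.797 and 0.608.

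The native articular array also stood apart over all genes. On that array 148 genes (2.64%), the 4 members included, had a signal at least 2-fold above each of the other 5 arrays, a count that lay between 9 and 39 for each remaining array. In the other direction 326 genes (5.82%) lay at least 2-fold below every other array there, a count between 3 and 31 on the remaining arrays. Of the 37 other immediate early genes, 11 had a native articular signal at least 2-fold above each of the other 5 arrays. The mean correlation of the native articular array with the other arrays across genes was 0.889. That of the others was between 0.930 and 0.939. The ratio of 3′ to 5′ control signal, a measure of RNA integrity, was 4.94, 3.27 and 5.55 for actin on the growth plate arrays and 4.28, 4.58 and 8.75 on the articular arrays at native, day 10 and day 20. The native articular value thus lay inside the range of the others. For GAPDH it was 1.26, 1.49 and 0.995 on the growth plate arrays and 1.52, 1.44 and 1.15 on the articular arrays, the native articular one being the highest by a small margin. For EF1A it was 1.20, 1.25 and 1.31 on the growth plate arrays and 1.07, 1.45 and 1.51 on the articular arrays, the native articular one being the lowest. The part of RNA quality in the members' values was not tested.

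The cartilage genes COL2A1 and ACAN had signals of at least 1164 and 6596 on every array. SOX9, the chondrocyte transcription factor, had 175, 125 and 118 on the growth plate arrays, against 982, 81.0 and 76.8 on the articular arrays, so it too was highest in native articular cartilage. Of 6 blood and macrophage markers on the array, PTPRC, CD163 and ALAS2 lay under the floor on all arrays. The summed signal of this list, mostly HBB, was 335 to 541 in growth plate and 415 to 687 on the articular arrays. Of 5 endothelial markers, CDH5, VWF, KDR and TEK lay under the floor on all arrays, and PECAM1 had 67.2, 52.9 and 52.6 on the growth plate arrays, against 277, 118 and 65.6 on the articular arrays. In native tissue the log2 difference of PECAM1 was -2.04 on this probe set and -0.98 on a dimmer one. The summed endothelial signal was 72.6 to 122 in growth plate and 83.1 to 301 on the articular arrays, highest in native articular cartilage like the 4 members. The part of PECAM1-expressing cells in the members' values was not tested. The summed osteoblast markers, mostly SPP1, were 11737 to 14219 on the growth plate arrays and 5067 to 19349 on the articular arrays, again highest in native articular cartilage. The summed synovial and fibroblast markers, of which 5 of 8 were on the array, were 18005 to 28309 in growth plate and 23065 to 30289 on the articular arrays, mostly VIM. In native tissue 3 of these 5 were at least 2-fold higher in growth plate, where 12.9% of all genes were. THY1 had 6583 in native growth plate, against 1818 in native articular cartilage, CD55 had 191 in native growth plate, against 39.6 in native articular cartilage, and COL3A1 had 262 in native growth plate, against 58.0 in native articular cartilage. The native pair on which the members differ thus also differed in these markers, and their part in the members' values was not tested. The summed skeletal muscle markers were 138 to 324 in growth plate and 85.8 to 324 on the articular arrays, and the summed adipocyte markers, mostly LPL, were 486 to 1413 in growth plate and 502 to 915 on the articular arrays.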

How the data were processed

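RNA of 6 pig samples was hybridised to 6 Affymetrix arrays after labelling per the labels' protocols by the Two-Cycle method. Each probe set has a deposited intensity on a linear scale, which the authors computed in GCOS 1.4 (per the submitters' processing notes). Algorithm settings, scaling target and detection calls were not given in the sources used here. Means without the top and bottom tails were equal at about 399.9 on all arrays, so no scaling was added.

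The 124 control probe sets were left out. Signals under the 40th percentile (36.1) were raised to this floor and log2 was taken. Of 23999 probe sets, 10069 had 1 gene symbol, 198 several and 13732 none. Of the first, 9961 had a current symbol in the RefSeq table of Sscrofa11.1, used for names only. A gene was represented by its brightest probe set, and 5601 of 6765 genes exceeded the floor on at least 2 arrays. All 4 members did, as did 5 of their 6 probe sets, and each member's used probe set exceeded it on all 6.

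Single arrays were compared by a size rule of 2-fold without a test. The day contrast used limma 3.58.1 in R 4.3.3, with version 1.17.8 of data.table, an intensity trend, 2 residual degrees of freedom and 3.74 from the prior. A call needed a Benjamini-Hochberg adjusted p under 0.05 and 2-fold. The fit was tested on simulated data. The number of arrays limits the precision. The members, lists, naming rule and tests were chosen with earlier results of these data known. Named genes were the members, the 3 nearest to each in pattern, up to 4 of each list by native and by culture difference, and COL2A1, ACAN and SOX9. Markers, genes that make up a small count and genes whose probe sets differed were named beyond that. Promoter and protein sequences were not used here.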

Additional observations from a re-analysis of the deposited data

Results flagged for a closer look

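The tissue difference of ATF3, growth plate minus articular on the log2 scale, was -3.76 in native tissue and 0.63 at day 10, and it was -0.52 at day 20, so its sign at day 10 was opposite to that of both other stages. The change of ATF3 at day 10 against native tissue was 0.42 in growth plate and -3.97 in articular chondrocytes. Its change at day 20 against day 10 was -0.67 in growth plate and 0.48 in articular cultures. For RGS2 the tissue difference was -3.33 in native tissue and -0.79 at day 10, but 0.19 at day 20. Its change at day 20 against day 10 was 0.44 in growth plate and -0.54 in articular cultures. These results drew attention because the samples compared moved in opposite directions. With 1 array per condition, none of these differences was tested.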

How the results depend on the processing

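No replicate block could be fitted because each condition had 1 array and the labels give no replicate numbers, but the additive limma fit already compares day 20 with day 10 within each cartilage. Over 7 alternatives of scaling, floor, pseudocount and probe sets, the GEM difference stayed between -2.53 and -2.14 in native tissue, between -2.61 and -2.30 at day 10 and between -2.65 and -2.39 at day 20. The native difference stayed between -4.02 and -3.62 for ATF3, between -3.47 and -3.07 for ZFP36, and between -3.59 and -1.49 for RGS2, the last with the mean of its probe sets. No alternative turned the sign of a called difference of a member. With a pseudocount of 50, ZFP36 in growth plate at day 10 missed 2-fold (-0.96), which left 1 of 4 members lower there.

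Median centring moved the median native difference of all genes to -0.26 and raised the share at least 2-fold lower in native growth plate to 14.5%. Of genes past 2-fold in native tissue, 38.0% were lower in growth plate as scaled by the authors, 50.2% with quantile normalization and 60.6% with median centring. The share lower at day 10 was 2.36% with the pseudocount, and at day 20 it was 2.55% with the pseudocount and 2.70% with a floor at the 60th percentile. At a 4-fold rule the shares were 1.21% in native tissue, 0.500% at day 10, 0.750% at day 20, 0.179% at both culture days and 0.0536% at all 3 stages.

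The limma count for day 20 against day 10 was 101 higher and 107 lower with the 4 cultured arrays only. Leaving out each array in turn, an alternative added after the data were seen, gave 0 to 108 higher and 0 to 115 lower. The counts above 0 came without native growth plate (108 and 115) and without native articular (99 and 105), fits that draw contrast and spread from the cultures. A fit that left out a culture assumed that the lone sample of that stage varies like the others. Over all alternatives the adjusted p was at least 0.0839 for ZFP36 and at least 0.631 for GEM. Without the native articular array, also added after the data were seen, the correlation with ATF3 was 0.714 for AQP5 and that with RGS2 was 0.767 for GLTP, while the other genes of like pattern moved by at most 0.1 in r, a limit set after the values were seen. Signals near the floor carry no order.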
